A study of Mus musculus with 12 samples.

Results

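Iron enters and leaves intestinal epithelial cells through a small set of transporters, and 8 of their genes were examined here in mouse colonoids, which are organoids grown from colonic epithelial stem cells. The 8 genes were taken by name from a table of 54532 genes. *Tfrc*, *Slc11a2*, *Slc39a14* and *Slc39a8* encode uptake proteins, *Steap3* and *Cybrd1* encode ferrireductases, and *Slc40a1* and *Heph* act in export. RNA of 12 colonoid libraries was sequenced, 3 in each of 4 groups. Control colonoids carried the Hmox1 fl/fl genotype, and the other 6 libraries were labelled KO, with *Hmox1* deleted by a Cre recombinase under the *Vil1* promoter, which is active throughout the intestinal epithelium. *Hmox1* encodes heme oxygenase-1, which breaks down heme and releases its iron. Each genotype received vehicle or hemin, an iron-containing porphyrin. The hemin dose and exposure time of the sequenced colonoids are not given in the sources used here. The colonoids came from mice of 8 to 12 weeks and grew in Wnt-rich conditioned medium. No label says whether the 3 libraries of a group came from separate animals or cultures, so p-values measure the spread between these libraries, which may be technical. One hemin library titled as KO has a genotype entry that keeps the fl/fl wording beside *Vil1* Cre.

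Cells adjust their iron traffic to the iron they hold. Transferrin-bound iron enters by endocytosis with transferrin receptor 1, the product of *Tfrc*. In the endosome the iron is reduced by STEAP3 and moved to the cytosol by DMT1, the product of *Slc11a2*, which also takes up ferrous iron at the apical surface of duodenal enterocytes after reduction by CYBRD1. ZIP14 (*Slc39a14*) and ZIP8 (*Slc39a8*) are zinc transporters of the same subfamily that also carry iron and manganese. Ferroportin (*Slc40a1*) is the known cellular iron exporter, and hephaestin (*Heph*) is the copper ferroxidase that oxidises the exported iron. When iron is scarce, iron regulatory proteins bind stem-loops named iron responsive elements. Binding in the 3′ UTR of the *Tfrc* mRNA protects it from decay, and binding in the 5′ UTR of the ferroportin and ferritin mRNAs blocks their translation. Heme can also induce *Slc40a1* and ferritin genes at transcription, through loss of the repressor BACH1.

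A search of the reference transcripts for the letters of such an element is shown first, because *Tfrc* held more matches than any other member. The pattern asked for a C, 5 further bases, the loop CAGTGN, and 5 bases that pair with the 5 before the loop, with G-T pairs allowed. Only the sense strand of protein-coding transcripts in GENCODE M21 was read, and overlapping matches were counted once each. The longest *Tfrc* transcript held 4 matches, all in exon 19 and all in the 3′ UTR, on the + strand of chromosome 16 in GRCm38. They lie at chr16:32631219-32631247, chr16:32631598-32631626, chr16:32631663-32631691 and chr16:32631710-32631738. Each is printed 5′ to 3′ with the loop in capitals and 6 flanking bases on either side of the pattern.
Tfrc element 1: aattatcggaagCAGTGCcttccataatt
Tfrc element 2: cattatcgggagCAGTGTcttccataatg
Tfrc element 3: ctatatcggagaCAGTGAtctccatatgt
Tfrc element 4: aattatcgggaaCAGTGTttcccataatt

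The last base of the loop was left free in the pattern. The longest *Slc40a1* transcript held 1 match, in the 5′ UTR in exon 1, at bases 90 to 118 of the transcript. No other member held the pattern. That says only that these letters are not in those transcripts, and elements with other bulges or loops, such as the one known in an *Slc11a2* isoform, were not searched. Across 21877 protein-coding genes, 294 (1.34%) had a transcript with at least 1 match, and *Tfrc* was the 1 gene with 4 or more.

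**Figure D1:**
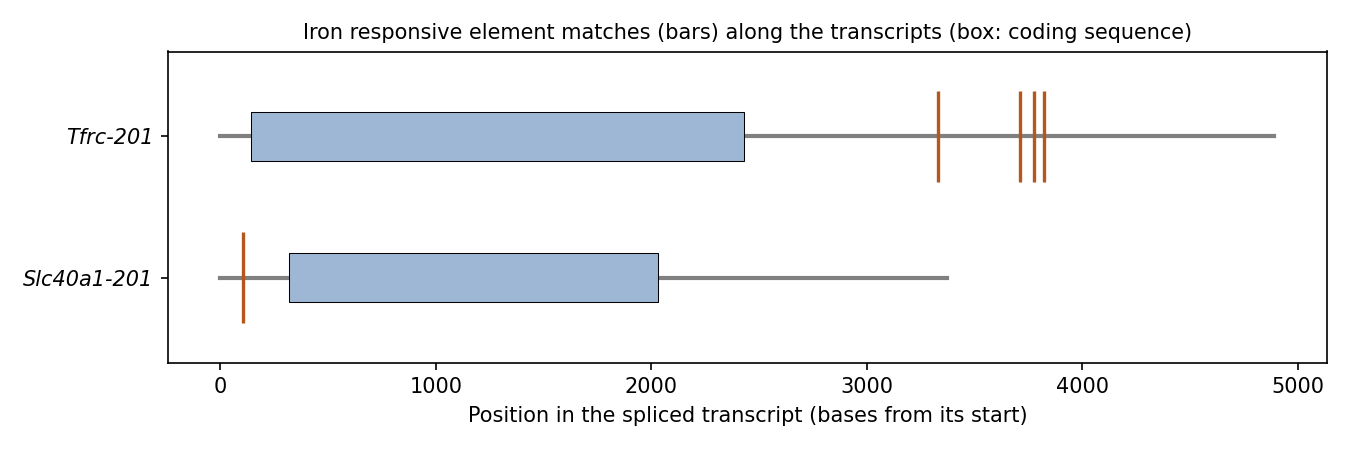
Position of the iron responsive element matches along the longest *Tfrc* and *Slc40a1* transcripts, in bases from the start of the spliced transcript. Boxes are coding sequence, grey lines are the UTRs and vertical bars are matches: 4 lie after the coding sequence of *Tfrc* and 1 lies before that of *Slc40a1*.

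Depth was 11648801 to 25101868 fragments on genes per library. One noncoding RNA, *Gm23935*, took 16.8%, 29.0% and 21.0% of the FPKM sum in 3 libraries (control vehicle 1, control hemin 1 and KO hemin 2), against at most 2.81% in the other 9. All counts of members given here were also run without those 3 libraries. *Hmox1* was 7.62, 6.85 and 7.90 FPKM in control vehicle and 3.14, 2.11 and 2.31 in the vehicle libraries labelled KO. Under hemin it was 503, 483 and 382 FPKM in control and 1279, 1392 and 1271 in the libraries labelled KO, which a loss of the whole RNA would not give. The paper reports loss of *Hmox1* expression by RT-qPCR in sorted colonic epithelial cells of the KO mice, not in these libraries. A whole-gene value does not show which exons were read, so "KO" below names the label. Epithelial markers were high in every library, with a summed level of 5873 to 10048 FPKM over 8 genes. The sum was 8221 to 9199 FPKM in control vehicle and 5873 to 5909 in KO vehicle. Between these groups 4 of the 8 were lower and 0 higher under the KO label, against 16.8% and 17.4% of all genes. Erythroid markers summed to at most 1.43 FPKM and stromal and immune markers to at most 5.32. Of 8 duodenal and small intestinal markers, 2 were expressed well enough to be tested, and they differed between genotypes in opposite directions. *Fabp2*, a fatty acid binding protein, averaged 48.9 FPKM in control vehicle and 2.66 in KO vehicle (log2 −3.77), and *Apoa1* was higher in KO vehicle (log2 1.58), having entered the test through libraries labelled KO alone. *Hoxb13*, a homeobox gene of the distal colon, had 0 fragments in all 6 control libraries, which allows up to 3 in each by counting error alone, and 104 to 134 FPKM in the 6 labelled KO. Genotype and the colon region that the cells express therefore cannot be told apart in any comparison of KO with control.

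Of the 8 members, 7 reached 1 FPKM in at least 3 libraries and entered the test, limma on log2(FPKM + 1) over 12740 genes. FPKM divides fragments by gene length and by library depth. The deposited length exceeds the longest coding transcript for several members and not to the same degree, with 9000 against 3370 bases for *Slc40a1*, 7664 against 3533 for *Slc39a8* and 6185 against 4890 for *Tfrc*. The order of members given next holds for the deposited lengths, and genes of close levels could change places with others. In control vehicle *Tfrc* was highest at 63.4 ± 5.92 FPKM (SD, n = 3), followed by *Slc40a1* at 23.6 ± 0.215 and *Heph* at 21.3 ± 0.418. *Slc11a2* stood at 7.33 ± 0.392, *Slc39a8* at 5.99 ± 0.501, *Slc39a14* at 4.03 ± 0.197 and *Steap3* at 1.90 ± 0.271 FPKM. In the vehicle libraries labelled KO the order changed at the top, with *Slc11a2* first at 109 ± 4.36 FPKM and *Tfrc* second at 69.4 ± 2.85. Under hemin *Slc40a1* and *Heph* were the 2 highest members in both genotypes.

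**Figure D2:**
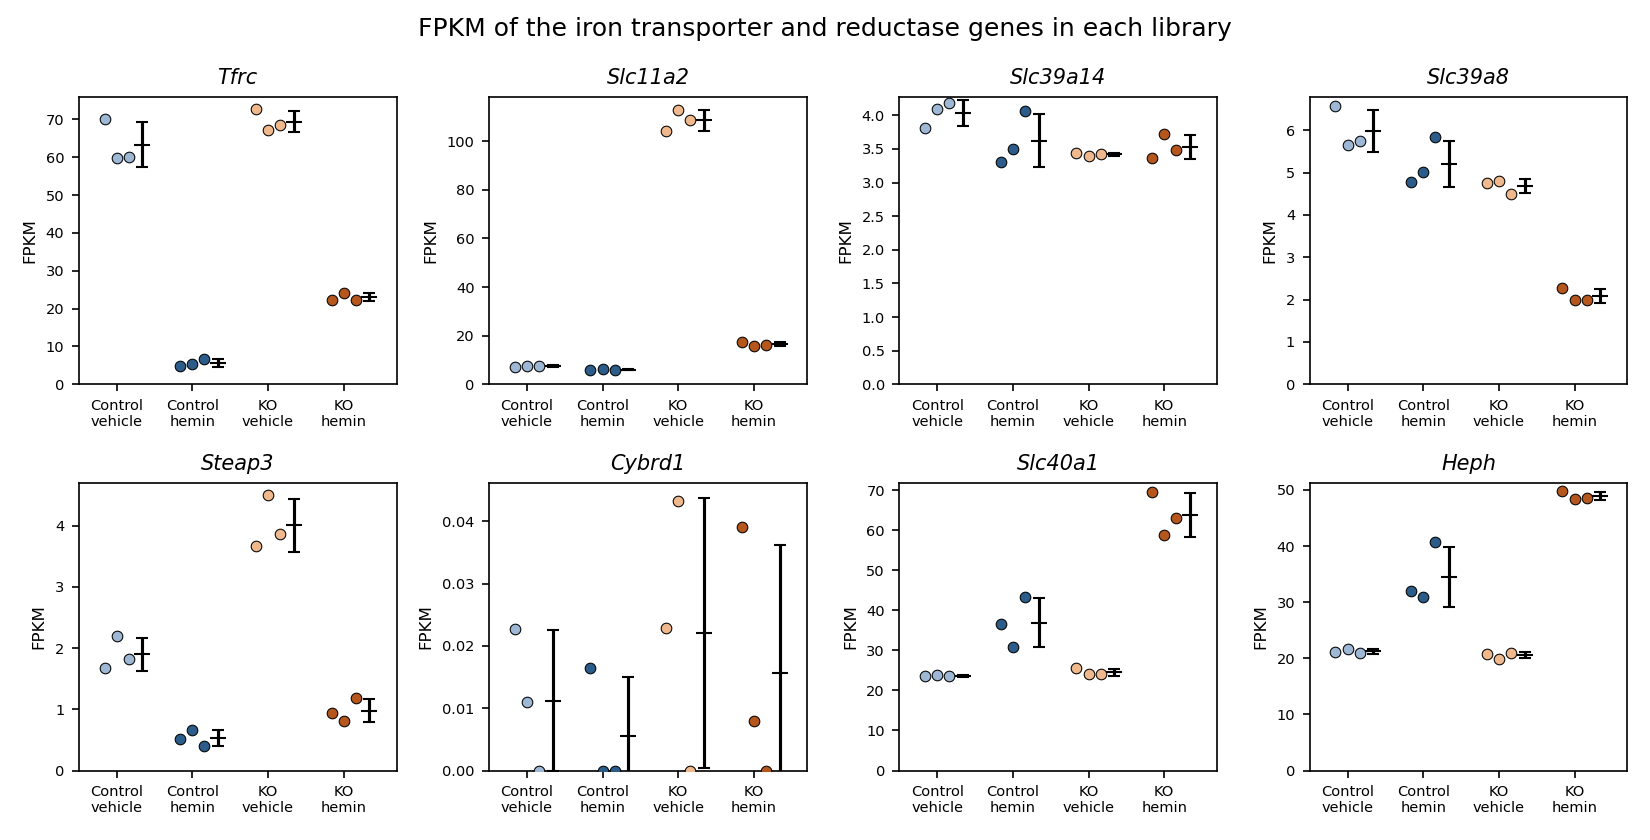
FPKM of each member in each of the 12 libraries, on linear axes from 0 with a separate scale per gene. Points are libraries in replicate order and the bar beside them is the mean ± SD (n = 3). *Tfrc* is high in both vehicle groups, *Slc11a2* is high in the KO vehicle group, *Slc40a1* and *Heph* are high under hemin, and *Cybrd1* stays under 0.05 FPKM.

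After hemin, the control colonoids carried far less *Tfrc* and *Steap3* and more *Slc40a1* and *Heph*. In this comparison 5 of the 7 tested members passed (adjusted p under 0.05), 2 higher and 3 lower, against 49.9% of all tested genes. One of the 3 lower, *Steap3*, entered the test through its vehicle libraries, since it lay under 1 FPKM in control hemin. With an absolute log2 fold change above 1 as a further condition, 1 member was called, against 8.11% of genes. The median log2 difference was −0.17 over the 7 members and −0.01 over all genes. Among libraries labelled KO, 6 of 7 passed with hemin, 2 higher and 4 lower, against 60.4% of genes, and 5 were called, against 12.9% of genes. *Steap3*, among those called, again entered the test mainly through vehicle libraries, with 0.936, 0.811 and 1.18 FPKM in KO hemin. There the median was −0.88 over the members and 0.00 over all genes. Passing was common among all genes, so a pass alone says little about these members, and the values of each are given in turn.

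Between genotypes under vehicle, 3 of 7 members passed, against 34.2% of genes, and 1 was called, against 6.8%. Under hemin 6 of 7 passed, 5 higher and 1 lower in the libraries labelled KO, against 34.4% of genes, and 3 were called, against 6.01%. The response to hemin itself differed between genotypes for 5 of the 7 members by the interaction term, against 23.8% of genes, and 2 of these differed by more than 1 on the log2 scale, against 5.13%. All 4 pairwise comparisons share groups with one another and are not independent. Without the 3 libraries rich in *Gm23935* the passing counts were 5 and 6 for hemin in control and KO, 2 and 5 for KO against control under vehicle and hemin, and 4 for the interaction, against 42.2%, 55.6%, 29%, 27% and 18.6% of all genes in the same order.

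**Figure D3:**
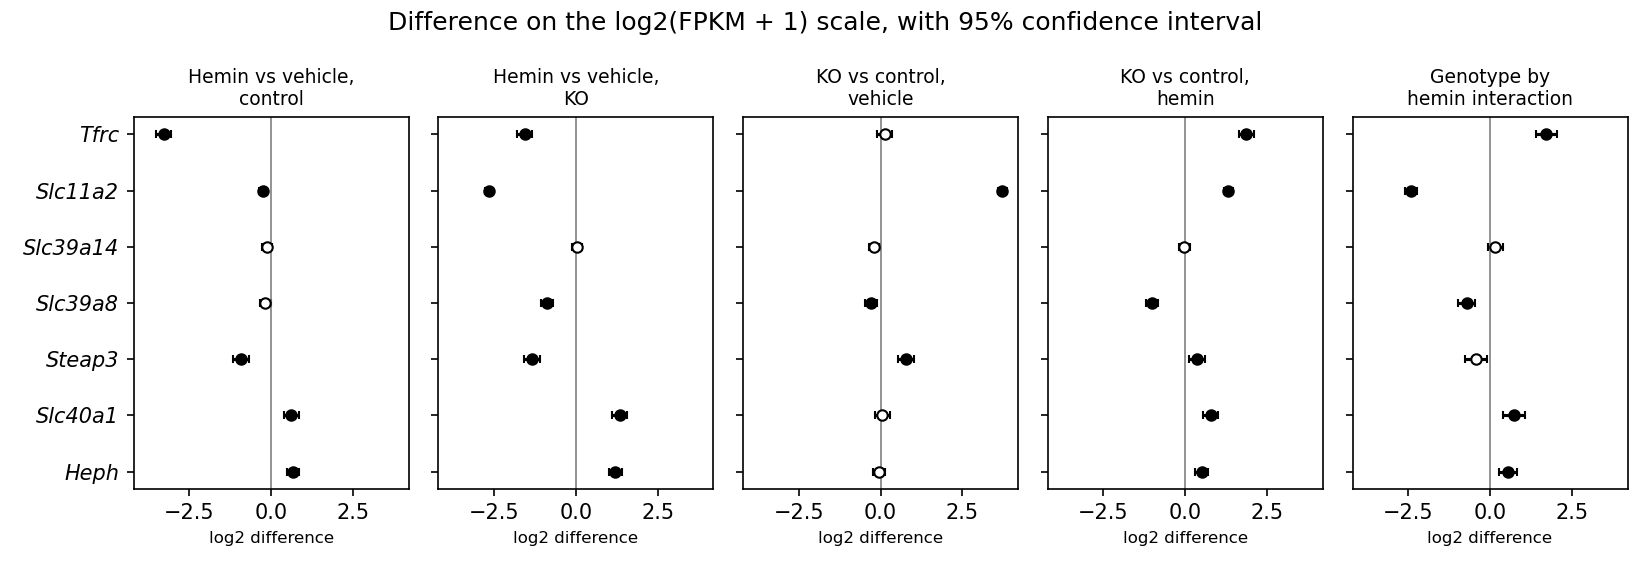
Difference of each tested member on the log2(FPKM + 1) scale in the 5 comparisons, with the 95% confidence interval from limma. Filled points have an adjusted p under 0.05 over all genes. *Tfrc* reaches −3.28 with hemin in control and *Slc11a2* 3.72 between genotypes under vehicle.

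*Tfrc* (ENSMUSG00000022797, chromosome 16, 32608920 to 32632794, + strand) showed the largest response to hemin among the members in control colonoids. Its level was 70.2, 59.9 and 60.0 FPKM in control vehicle and 4.78, 5.41 and 6.80 FPKM in control hemin. The ranges lay far apart, and the mean was 11.2-fold lower with hemin, from 5099 to 7160 fragments per library down to 337 to 491. On the log2(FPKM + 1) scale the difference was −3.28 (SE 0.10, adjusted p = 3.38e-09, limma). In the libraries labelled KO the level was 72.7, 67.2 and 68.5 FPKM with vehicle and 22.4, 24.2 and 22.3 FPKM with hemin. All 3 hemin libraries were again below all vehicle libraries, with a mean 3.03-fold lower (log2 −1.56, SE 0.10, adjusted p = 3.58e-07). The 2 vehicle groups overlapped (log2 difference 0.13, 95% CI −0.10 to 0.36, adjusted p = 0.369, limma). Under hemin the libraries labelled KO held 4.05-fold more *Tfrc* than control (log2 1.86, SE 0.10, adjusted p = 1.76e-07). The order of the groups was therefore KO vehicle and control vehicle without a difference beyond their spread, then KO hemin, then control hemin. The interaction was 1.72 on the log2 scale (SE 0.15, adjusted p = 1.82e-05, limma), so the fall was smaller in the libraries labelled KO.

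Proliferating cells use much iron, and markers of stem and proliferating cells moved with hemin too. All 12 of them passed as lower in control (median log2 −1.47), against 26.7% of all genes, and all 12 in the libraries labelled KO (median −1.34), against 30.4%. Of these, *Lgr5* and *Smoc2* averaged under 1 FPKM in both hemin groups and entered the test through vehicle libraries alone, so their fall was fixed by the filter. The summed level of all 12 was 283 to 312 FPKM in control vehicle and 107 to 122 in control hemin. Under the KO label it was 409 with vehicle and 187 to 211 with hemin. Under hemin 10 of the 12 were higher and 1 lower in the libraries labelled KO than in control, against 19.7% and 14.7% of all genes. One of the 10, *Ascl2*, entered the test mainly through libraries labelled KO, so its direction was fixed by the filter. *Mcm5*, a subunit of the replicative helicase, averaged 31.2 FPKM in control vehicle, 7.86 in control hemin, 49.6 in KO vehicle and 19.3 in KO hemin. The part of these markers in the *Tfrc* values was not tested. In bulk RNA, fewer cells of a type and less RNA per cell cannot be told apart.

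*Slc11a2* (ENSMUSG00000023030, chromosome 15, 100387898 to 100425072, − strand) differed between genotypes before any hemin was given. Control vehicle libraries held 6.90, 7.44 and 7.66 FPKM, and the vehicle libraries labelled KO held 104, 113 and 109 FPKM. No control library came near the libraries labelled KO, whose mean was 14.8-fold higher (log2 3.72, SE 0.06, adjusted p = 9.4e-12, limma). With hemin the control level was 6.06, 6.22 and 5.82 FPKM, lower than vehicle in all 3 libraries by a small step (log2 −0.24, SE 0.06, adjusted p = 0.00575, limma). That small step did not pass when the fit held only the 2 groups compared (adjusted p = 0.0542) or on TPM values (adjusted p = 0.0726). In the libraries labelled KO hemin brought the gene to 17.4, 15.9 and 16.1 FPKM, 6.61-fold below vehicle (log2 −2.65, SE 0.06, adjusted p = 1.19e-10). It still exceeded control hemin 2.73-fold (log2 1.31, adjusted p = 3.23e-08, limma). The 4 groups were separate from one another in the order KO vehicle, KO hemin, control vehicle, control hemin. The interaction was −2.41 (SE 0.08, adjusted p = 3.89e-08), of opposite sign to that of *Tfrc*. The annotated gene has isoforms with and without an iron responsive element, and a whole-gene FPKM does not separate them.

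*Slc11a2* and colon region markers both differed between genotypes under vehicle, and a link between them was not tested. Of the 6 region markers tested, 3 were higher and 2 lower in the libraries labelled KO under vehicle, against 17.4% and 16.8% of all genes. Of the 3, *Hoxb13* and *Hoxd13* entered the test through the libraries labelled KO alone, so their direction was fixed by the filter. *Hoxb8*, one of the 2 lower, stayed under 1 FPKM in KO vehicle. *Hoxd13* was 0 in all control libraries and 58.0 to 59.7 FPKM in KO vehicle, where *Hoxb6* averaged 3.90 FPKM against 56.9 in control vehicle and *Hoxb8* 0.159 against 17.7. These genes mark positions along the gut, and genotype and region cannot be told apart for *Slc11a2*. Colonocyte markers also differed, 4 of 8 higher and 3 lower, against 17.4% and 16.8% of all genes. *Car4*, a membrane carbonic anhydrase, was at 1.87 FPKM in control vehicle and 58.0 in KO vehicle. *Aqp8*, a water channel of surface colonocytes, was 44.0 FPKM in control vehicle and 426 in KO vehicle. In the opposite direction, *Guca2a*, which encodes guanylin, was 499 FPKM in control vehicle and 84.3 in KO vehicle (log2 −2.55), and *Krt20* and *Car1* were lower as well (log2 −0.70 and −0.69).

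The ZIP transporters were low and differed from each other in their response. *Slc39a8* (ENSMUSG00000053897, chromosome 3, 135825279 to 135888572, + strand) was 6.57, 5.66 and 5.74 FPKM in control vehicle and 4.78, 5.01 and 5.83 in control hemin. Those groups overlapped and the difference did not pass (log2 −0.17, 95% CI −0.35 to 0.01, adjusted p = 0.0985, limma). It passed without control hemin replicate 3 (log2 −0.24, adjusted p = 0.0161), the library with the highest level of that group. In the libraries labelled KO it was 4.76, 4.79 and 4.49 FPKM with vehicle and 2.27, 1.99 and 1.99 FPKM with hemin. Hemin thus lowered the KO mean 2.25-fold without overlap (log2 −0.88, SE 0.08, adjusted p = 3.74e-06). Under hemin *Slc39a8* was 2.50-fold lower in the libraries labelled KO than in control (log2 −1.01, SE 0.08, adjusted p = 3.17e-06, limma). Under vehicle the step was smaller (log2 −0.30, adjusted p = 0.0149, limma), and it did not pass without control vehicle replicate 1 (adjusted p = 0.061) or without KO vehicle replicate 3 (adjusted p = 0.0606). On TPM values its adjusted p was 0.52. The interaction was −0.71 (SE 0.11, adjusted p = 0.00112, limma).

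*Slc39a14* (ENSMUSG00000022094, chromosome 14, 70303469 to 70351425, − strand) passed in none of the 5 comparisons with limma. It was 3.81, 4.10 and 4.19 FPKM in control vehicle and 3.31, 3.49 and 4.06 in control hemin. The libraries labelled KO held 3.44, 3.39 and 3.42 FPKM with vehicle and 3.37, 3.72 and 3.49 with hemin. Its unadjusted p was under 0.05 in 1 comparison, KO against control under vehicle, where the groups did not overlap (log2 −0.19, 95% CI −0.35 to −0.03, adjusted p = 0.0658, limma). For hemin the 95% interval of the log2 difference was −0.28 to 0.03 in control and −0.12 to 0.19 in the libraries labelled KO. Without control hemin replicate 3, hemin in control passed (log2 −0.19, adjusted p = 0.0194), as did the interaction (log2 0.23, adjusted p = 0.0493). The genotypes under vehicle passed with limma-voom on recovered fragments (adjusted p = 0.0412) and in a fit of those 2 groups alone (adjusted p = 0.026).

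*Steap3* (ENSMUSG00000026389, chromosome 1, 120190757 to 120272705, − strand) fell with hemin in both genotypes. Its level was 1.68, 2.20 and 1.82 FPKM in control vehicle and 0.522, 0.666 and 0.404 FPKM in control hemin, the latter from 27 to 45 fragments per library. Under the KO label it was 3.66, 4.49 and 3.87 FPKM with vehicle and 0.936, 0.811 and 1.18 with hemin. No hemin library reached a vehicle library of its genotype, and the means were 3.58-fold lower in control and 4.10-fold lower in KO. At such levels the added 1 FPKM shrinks the log2 difference, which was −0.92 in control (SE 0.11, adjusted p = 4.55e-05, limma) and −1.34 in KO (SE 0.11, adjusted p = 1.56e-06). With 0.1 FPKM added instead, it was −1.68 in control. The gene entered the test through its vehicle levels, since control hemin lay under 1 FPKM throughout, so the filter favoured a fall. Under vehicle the libraries labelled KO held 2.11-fold more (log2 0.79, adjusted p = 0.000197, limma), and under hemin 1.84-fold more (log2 0.37, adjusted p = 0.0234). The hemin difference between genotypes did not pass when any 1 of 4 libraries was left out, namely control hemin replicate 1 or 3 or KO hemin replicate 1 or 3, with adjusted p from 0.0516 to 0.0958. It did not pass on TPM values either (adjusted p = 0.0994), with no filter on low genes (0.0651) or in a fit of the 2 groups alone (0.0742). The interaction did not pass (−0.42, 95% CI −0.76 to −0.08, adjusted p = 0.074), and it passed without control hemin replicate 3 (−0.48, adjusted p = 0.0339).

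*Cybrd1* (ENSMUSG00000027015, chromosome 2, 71117923 to 71142926, + strand), the duodenal reductase, was at the limit of detection. Summed over 3 libraries it had 3 fragments in control vehicle, 1 in control hemin, 6 in KO vehicle and 4 in KO hemin. The highest single library had 4 fragments, and every group contained at least 1 library with 0. It fell under the filter of the main fit. In a limma fit with no filter its log2 differences lay between −0.01 and 0.02 in the 5 comparisons, with adjusted p from 0.732 to 0.993, and no difference was detectable at this depth.

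The export genes rose with hemin in both genotypes. *Slc40a1* (ENSMUSG00000025993, chromosome 1, 45908068 to 45926523, − strand) was 23.5, 23.9 and 23.5 FPKM in control vehicle and 36.6, 30.9 and 43.3 FPKM in control hemin. Every hemin library exceeded every vehicle library, with a mean 1.56-fold higher (log2 0.61, SE 0.10, adjusted p = 0.000609, limma). KO-labelled libraries held 25.5, 24.0 and 24.0 FPKM with vehicle and 69.5, 58.8 and 63.0 FPKM with hemin. That rise was 2.60-fold (log2 1.34, SE 0.10, adjusted p = 1.1e-06). Under vehicle the genotypes lay close together (log2 difference 0.05, 95% CI −0.18 to 0.28, adjusted p = 0.765, limma). Under hemin the libraries labelled KO held 1.73-fold more (log2 0.78, SE 0.10, adjusted p = 0.000166). The interaction was 0.73 (SE 0.15, adjusted p = 0.00456, limma), and on TPM values it was 0.59 and did not pass (adjusted p = 0.265).

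*Heph* (ENSMUSG00000031209, chromosome X, 96455359 to 96574485, + strand) had a similar profile. Control vehicle libraries held 21.2, 21.7 and 20.9 FPKM and control hemin libraries 32.1, 30.9 and 40.7 FPKM. The groups did not overlap, and the mean was 1.63-fold higher with hemin (log2 0.66, SE 0.09, adjusted p = 9.61e-05, limma). KO-labelled values were 20.8, 19.9 and 21.0 FPKM with vehicle and 49.8, 48.4 and 48.5 FPKM with hemin, a 2.38-fold rise (log2 1.21, SE 0.09, adjusted p = 6.31e-07). Genotypes overlapped under vehicle (log2 −0.05, 95% CI −0.24 to 0.15, adjusted p = 0.734, limma) and were separate under hemin, 1.42-fold higher in KO (log2 0.50, adjusted p = 0.00111, and 0.0977 on TPM values). The interaction was 0.55 (SE 0.12, adjusted p = 0.00857, limma). It did not pass on TPM values (0.41, adjusted p = 0.481) or without the 3 libraries rich in *Gm23935* (0.51, adjusted p = 0.0673).

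Hemin in control gave weaker evidence for the exporters on TPM values, where *Slc40a1* (0.43, adjusted p = 0.112, limma) and *Heph* (0.49, adjusted p = 0.0711) did not pass. On that scale the median of all genes moved to −0.19 with hemin in control and −0.31 in the libraries labelled KO. With *Gm23935* left out of the sum it was −0.12 and −0.21. Relative to those medians the direction of both exporters was unchanged. The ratio of *Tfrc* to *Slc40a1* within a library does not depend on such scaling, apart from the added 1 FPKM. The log2 ratio was 1.54, 1.29 and 1.31 in control vehicle and −2.70, −2.32 and −2.51 in control hemin. In the libraries labelled KO it was 1.47, 1.45 and 1.47 with vehicle and −1.59, −1.25 and −1.46 with hemin. So the ratio was above 0 in all 6 vehicle libraries and below 0 in all 6 hemin libraries. Its level depends on the gene lengths used. The difference with hemin was −3.89 in control and −2.90 in KO, and under hemin KO exceeded control by 1.08. Each of these had a two-sided exact permutation p of 0.1, the smallest that 3 against 3 libraries allow. Under vehicle the genotypes differed by 0.08 (exact permutation p = 0.4).

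**Figure D4:**
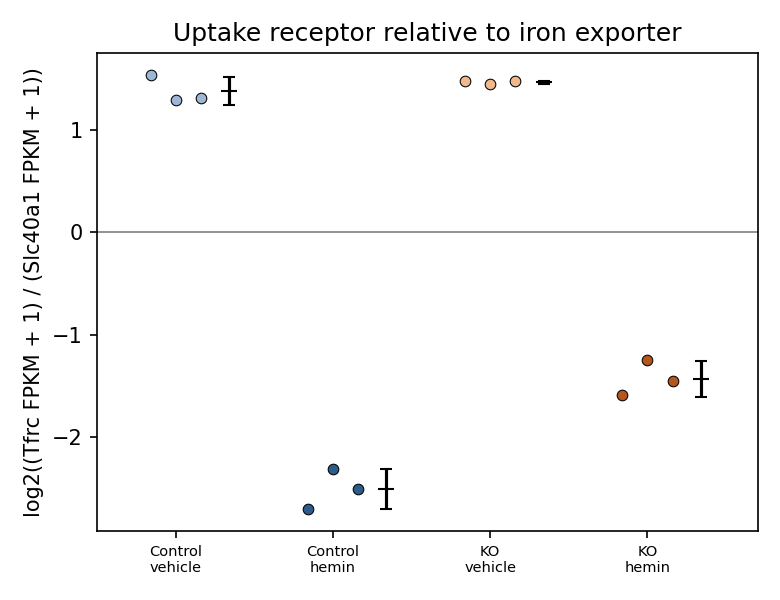
Log2 ratio of *Tfrc* to *Slc40a1*, with 1 FPKM added to each, in every library, with the mean ± SD of each group (n = 3) beside the points. The vehicle libraries lie between 1.29 and 1.54 and the hemin libraries between −2.70 and −1.25, with control hemin below KO hemin.

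Other iron genes were listed beside the members. With hemin 23.2% of all genes rose and 26.7% fell in control, and 29.9% rose and 30.4% fell in the libraries labelled KO. *Fth1*, the ferritin heavy chain, averaged 794 FPKM in control vehicle, 2437 in control hemin, 547 in KO vehicle and 5318 in KO hemin. *Ftl1*, the light chain, averaged 430, 2315, 291 and 3351 FPKM in the same order. Of 11 tested genes for iron sensing, chaperoning and storage, 3 rose and 2 fell with hemin in control, and 5 rose and 3 fell in the libraries labelled KO (median log2 0.11 and 0.18). *Ncoa4*, the ferritin receptor for autophagy, rose in both (log2 0.64 and 1.14). The transcripts of the iron regulatory proteins moved less, with *Aco1* at 0.06 in control, which did not pass, and 0.27 in KO, and *Ireb2* at 0.11 and 0.18, neither of which passed. These 2 were named after their values were seen.

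Among 9 tested genes of other iron uptake and reduction steps, 3 rose and 4 fell with hemin in control, against 23.2% and 26.7% of all genes. In KO 4 rose and 4 fell, against 29.9% and 30.4% (median log2 0.15 in control and −0.01 in KO). The metalloreductases related to *Steap3* were among those that fell. *Steap4* was 9.54 FPKM in control vehicle, 1.47 in control hemin, 29.7 in KO vehicle and 6.91 in KO hemin, and *Steap1* was 6.62, 1.93, 6.29 and 2.14. *Mcoln1*, a lysosomal cation channel that passes iron, rose (log2 0.56 in control and 1.09 in KO). Of 6 tested genes of export and systemic regulation, 2 rose and 3 fell in control and 3 rose and 3 fell in KO (median log2 −0.13 and −0.37). *Cp*, the ferroxidase ceruloplasmin, averaged 3.11 FPKM in KO vehicle and was at most 0.0697 FPKM in any library of the other groups. It entered the test through KO vehicle alone, so its fall in KO was fixed by the filter. *Atoh8*, a target of BMP signalling that also fell, entered through vehicle libraries alone. *Erfe*, which encodes the hormone erythroferrone, averaged 4.78 FPKM in control vehicle and 1.24 in control hemin.

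*Slc39a8* and *Slc39a14* belong to the ZIP family, of which 10 other genes were tested. With hemin 1 rose and 3 fell in control, and 3 rose and 4 fell in KO (median log2 0.00 and −0.09). These shares are near those of all genes, of which 23.2% rose and 26.7% fell in control and 29.9% rose and 30.4% fell in KO. *Slc39a5*, a basolateral zinc importer, fell in both (log2 −2.03 and −1.90), from 18.3 to 3.79 FPKM in control. *Slc39a4*, the apical zinc importer, was the most abundant of those named, at 119 FPKM in control vehicle and 77.9 in control hemin. Of 7 tested ZnT genes, which move zinc out of the cytosol, 4 rose and none fell with hemin in control, and 4 rose and 1 fell in KO (median log2 0.35 and 0.47). *Slc30a10*, a manganese exporter, was lower in the libraries labelled KO under vehicle and under hemin (log2 −1.31 and −1.95), as *Slc39a8* was.

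Several members are known targets of hypoxia-inducible factors in the duodenum, so HIF pathway genes were listed as well. Of 12 tested, 3 rose and 7 fell with hemin in control (median log2 −0.39), and 4 rose and 3 fell in KO (median 0.05). Over all genes 23.2% rose and 26.7% fell in control, and 29.9% rose and 30.4% fell in KO, so the KO counts are near the background. Under hemin 7 were higher and 1 lower in the libraries labelled KO, against 19.7% and 14.7% of all genes. *Egln3*, an oxygen-sensing hydroxylase and HIF target, averaged 62.6 FPKM in control vehicle, 20.6 in control hemin, 125 in KO vehicle and 128 in KO hemin. *Bnip3*, a mitophagy receptor, averaged 13.8, 7.40, 24.8 and 26.3 FPKM. *Epas1*, which encodes HIF-2 alpha, averaged 14.3, 12.8, 6.47 and 7.06 FPKM. It was lower in the libraries labelled KO under vehicle (log2 −1.03) and under hemin (log2 −0.79). In the opposite direction, *Hif1a* was higher in the libraries labelled KO under vehicle (log2 0.86) and under hemin (log2 1.17). A link between either gene and the *Slc11a2* values was not tested.

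The genes with profiles closest to each member were read from Pearson's r of log2(FPKM + 1) over the 12 libraries, as a description. The libraries of a group share their treatment and genotype, and 4 group means dominate such a value. For *Tfrc* these included *Ect2*, a cytokinesis regulator, and *Ly6g* (r = 0.99 for both). *Ect2* averaged 20.7 FPKM in control vehicle, 5.52 in control hemin, 23.4 in KO vehicle and 13.5 in KO hemin. For *Slc11a2* they were *Tcf7l1*, *Best2* and *Pde3b* (each 1.00 to 2 decimals), all 3 under 1 FPKM on average in both control groups, so that they entered through libraries labelled KO. Of these *Tcf7l1*, a transcription factor of the Wnt pathway, averaged 0.339, 0.190, 15.01 and 2.00 FPKM. *Best2*, a bicarbonate channel of colonic goblet cells, averaged 14.8 FPKM in KO vehicle and was listed at 0 in control hemin.

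The genes near *Slc40a1* included *Magi3* (r = 0.99), which averaged 12.7 FPKM in control vehicle, 14.8 in control hemin, 12.5 in KO vehicle and 19.0 in KO hemin. *Heph* lay nearest to *Etnk1*, *Rtn3* (both 1.00) and *Eps8* (0.99). *Slc39a8* lay nearest to *Dpysl3*, *Tcim* (both 0.99) and *Itga2*, an integrin subunit (0.98). *Steap3* lay nearest to *Top1mt*, *St6galnac6* and *Lor* (each 0.99). *Slc39a14*, whose level varied least, had its nearest genes at r = 0.90, namely *Rfx7*, *Erg28* and *Sco1*.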

How the data were processed

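Poly-A RNA of 12 colonoid libraries was sequenced and processed by the authors' service provider, with fastp, HISAT2 2.0.5 and featureCounts 1.5.0-p3 on build mm10 per the labels. The authors deposited gene-level FPKM values with gene positions and lengths. The deposited FPKM are whole multiples of 1 fragment for 100% of values (tolerance 0.1 fragments), so fragments were recovered. The median-of-ratios factor was the same in all 12 libraries, so the values had been scaled between libraries before deposit. Member positions matched GENCODE M21 for 8 of 8 genes, and that annotation gave the transcripts searched for iron responsive elements.

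Genes of at least 1 FPKM in at least 3 libraries (12740) were fitted as log2(FPKM + 1) with limma 3.58.1 (R 4.3.3; trend; 4 group means; all 12 libraries), with Benjamini-Hochberg adjustment over all of them. A fold change on that scale understates changes of low genes, and ratios of means are given beside it. A gene passed at adjusted p under 0.05 and was called with an absolute log2 fold change above 1. Pairs of replicates differed by more than sampling noise (chi-square per degree of freedom 1.98 to 47.9 over 12 pairs), and all 12 libraries were counted. Pairs of KO vehicle libraries lay between 1.98 and 3.18. Such an excess does not show that libraries came from separate animals or cultures. The fitting code was tested on simulated data. The members and gene lists were chosen with earlier results of these data known. All members are named, with the 3 genes of highest Pearson's r to each (some of which are not reported here) and up to 4 genes per list by log2 fold change among those that passed. The strand setting of the counting is not given in the sources used here. Alternatives tried were another pseudocount, other filters, TPM, another scaling, a replicate block, no trend, smaller fits, limma-voom and leaving out libraries.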

Additional observations from a re-analysis of the deposited data

Results flagged for a closer look

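The response to hemin differed between the genotypes, by the interaction term in limma, for 5 of the 7 tested members, against 23.8% of all genes. The term was 1.72 on the log2 scale for *Tfrc* (adjusted p = 1.82e-05) and −2.41 for *Slc11a2* (adjusted p = 3.89e-08). It was 0.73 for *Slc40a1* (adjusted p = 0.00456), 0.55 for *Heph* (adjusted p = 0.00857) and −0.71 for *Slc39a8* (adjusted p = 0.00112). For *Tfrc*, *Slc40a1*, *Heph* and *Slc39a8* the direction with hemin was the same in both genotypes and its size differed, although the fall of *Slc39a8* in control did not pass. On TPM values the terms of *Slc40a1* and *Heph* did not pass (adjusted p = 0.265 and 0.481, limma), and that of *Heph* did not pass without the 3 libraries rich in *Gm23935* (adjusted p = 0.0673). *Slc11a2* fell in both, from very different vehicle levels. Groups of 3 libraries were not searched for single outlying values.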

How the results depend on the processing

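Of 615 comparisons of a member's log2 difference with an alternative setting, 582 kept their direction and side of the threshold, 20 lost and 8 gained a pass, and 5 changed sign, none of the 5 past the threshold. *Slc39a8* and *Slc39a14* gained a pass with hemin in control on TPM without *Gm23935* in the sum (adjusted p = 0.0196 and 0.0391, limma). The sign changes were *Slc39a14* with hemin in KO (−0.27 on TPM, −0.17 on TPM without *Gm23935* in the sum), *Heph* between genotypes under vehicle (0.0984 and 0.0159 on the same scales) and *Slc39a14* between genotypes under hemin without control hemin replicate 3 (0.0403, with −0.0766 as the lowest when another library was left out). Passing counts fell to 2 for hemin in control and 3 for the interaction on TPM. With a mean of at least 5 FPKM, where fewer members were tested, the count fell to 1 for the genotypes under vehicle, against 35.4% of genes. Called counts rose to 2 for hemin in control and to 2 for the genotypes under vehicle, each with a pseudocount of 0.1, on both TPM scales and with limma-voom. For hemin in KO the called count was 6 with a pseudocount of 0.1, on TPM without *Gm23935* in the sum and with limma-voom, against 5. The cause of the TPM changes was not tested. Replicate numbers did not pair the libraries (correlation of same-numbered deviations −0.33 to 0.18 over 18 pairs). With the replicate block the passing counts were 5, 6, 3, 6 and 5, as without it, against 46.9%, 57.8%, 31.2%, 31% and 20.1% of genes. The order is hemin in control, hemin in KO, genotypes under vehicle, genotypes under hemin and interaction. In the main fit the share of all genes passing was 49.9%, 60.4%, 34.2%, 34.4% and 23.8%. Without a filter, where more genes were tested, it was 22.2%, 28.6%, 16.8%, 14.8% and 10.5%, and the share called was 3.45%, 5.64%, 2.94%, 2.6% and 2.16%. On TPM the share passing moved to 31.4% for hemin in control, 17.8% and 16.6% for the genotypes and 7.14% for the interaction, and the share called with hemin rose to 13.4% and 21.5% (12.6% and 19.4% without *Gm23935* in the sum). With limma-voom 14.4%, 20.4%, 10.2% and 11% of genes were called in the pairwise comparisons, and with a pseudocount of 0.1, 13.8% for hemin in control and 10.5% for the genotypes under hemin. In a fit of 2 groups alone 21.4% passed for the genotypes under hemin, and without control hemin replicate 3 the interaction passed for 37.1%. Leaving out the libraries rich in *Gm23935* was chosen after seeing the data.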
